A study of Mus musculus with 8 samples.

Results

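Erythroid genes, the genes that developing red blood cells switch on, were followed from primary mammary tumours to spine metastases of the mouse 4T1.2 carcinoma. The list held 9 genes, Slc4a1, Ermap, Alas2, Epor, Klf1, Gata1, Ahsp, Hemgn and Epb42, and a gene was measured through every probe set whose platform annotation gave its symbol and no other. This found 8 of the 9 genes, in 11 probe sets of 34945 with a single gene symbol, which stand for 18193 genes. Slc4a1 had 3 probe sets, Epb42 had 2 and the other 6 genes had 1 each, while Ahsp was not analysed here.

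The study compared 4 arrays of primary 4T1.2 tumours grown in the mammary gland with 4 arrays of matched spine metastases, both in mice of the Balb/c strain. Per the design text each metastasis was taken from the animal that carried the primary tumour of its replicate number, so the 8 arrays stand for 4 mice. The labels describe tumour epithelial cells isolated from the tumours, without naming the sort or gate. They give no age, no treatment and no allele. The 4T1.2 line is a clonal derivative of the 4T1 mouse mammary tumour line, so all tumours descend from 1 line. Bone marrow, which surrounds a spine metastasis, is the main site of red blood cell formation in the adult mouse.

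In red cell development the transcription factors Gata1 and Klf1 switch on most of the other genes of the list. The hormone erythropoietin, read by the receptor Epor, keeps the precursors alive. Alas2 then starts haem synthesis, and Slc4a1, Epb42 and Ermap build the red cell surface and the skeleton beneath it.

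The promoters of these genes are shown because their common regulators, Gata1 and Klf1, are themselves on the list and could be read beside them. RefSeq promoter windows (GRCm38.p6) were matched by symbol for 7 of the 9 genes, all but Slc4a1 and Ahsp, and the 250 bases before each start site were searched on both strands. The letters GATAA, the core that Gata1 reads, were in 6 of the 7 windows, Gata1's own being the exception, and in 22.6% of 32851 promoter windows of the same length. The letters CCNCNCCC, the type of site that Klf1 reads, were in 4 of 7 windows and in 45.9% of all, and the E-box letters CANNTG in 5 of 7 and 66.2%. These are matches of letters in a window and were not shown to be sites. The 110 bases before the start of 5 genes follow, on the gene's own strand, 5′ to 3′, with matches to GATAA or CCNCNCCC on either strand in capitals (TTATC is GATAA read on the other strand, and overlapping matches run together). They lie at chr8:84901872-84901981 (+) for Klf1, chrX:150547307-150547416 (+) for Alas2, chr9:21963577-21963686 (-) for Epor, chr4:119189996-119190105 (-) for Ermap and chr4:46404184-46404293 (-) for Hemgn.
Klf1: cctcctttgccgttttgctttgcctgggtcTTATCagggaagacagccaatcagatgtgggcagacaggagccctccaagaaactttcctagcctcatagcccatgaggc
Alas2: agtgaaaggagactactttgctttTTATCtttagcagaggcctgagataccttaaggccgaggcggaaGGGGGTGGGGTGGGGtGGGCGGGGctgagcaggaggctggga
Epor: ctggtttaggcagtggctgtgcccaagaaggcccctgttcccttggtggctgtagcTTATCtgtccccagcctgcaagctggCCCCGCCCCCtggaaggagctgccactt
Ermap: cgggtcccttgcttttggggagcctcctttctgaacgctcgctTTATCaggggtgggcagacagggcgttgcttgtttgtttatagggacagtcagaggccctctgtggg
Hemgn: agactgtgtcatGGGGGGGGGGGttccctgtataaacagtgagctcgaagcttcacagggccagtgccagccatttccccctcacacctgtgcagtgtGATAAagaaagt
All 5 hold a GATAA match within 86 bases of the start, from 12 bases before it in Hemgn to 86 bases before it in Alas2. The 5 printed are those of the 7 windows with such a match in the 110 bases, so this holds by selection. The match of Epb42 lay 226 bases before the start, and Gata1 had none. The share of all promoter windows with a match so near the start was not determined. None of the 5 printed genes passed the test in metastases, and Gata1 itself read under the array median on all 8 arrays.

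None of the 8 measured erythroid genes differed between bone metastasis and primary tumour past the threshold. By their brightest probe sets 5 of the 8 lay under the array median in both groups, as did 5644 of all 18193 genes. Of the 11 probe sets, 0 passed an adjusted p of 0.05 by limma, where 20.6% of all 34945 probe sets did, 8.72% higher in metastasis and 11.9% lower. At an unadjusted p under 0.05 there were 2, Slc4a1 and Ermap, both higher, against 16.5% of all probe sets in that direction. Counted by gene, with the brightest probe set of each, 0 of 8 passed where 21.9% of all genes did, and 2 of 8 were higher at an unadjusted p under 0.05 where 17.6% were. By limma with an intensity trend and a robust prior 1 probe set passed, the brightest of Slc4a1. Log2 signals are given as deposited, and a log2 difference is metastasis minus primary. The standard error (SE) and the 95% interval of each come from the same fit. All 11 differences lay above 0, from 0.06 to 0.51, with a median of 0.31, beside a median of 0.09 over all probe sets. Differences above 0 were found in 20472 of all 34945 probe sets, and in 10824 of the 13895 under the array median in both groups. That median of 0.31 was 0.14 without metastasis array 4. In 4 of the 11 probe sets the metastasis was higher in all 4 mice, as in 22.9% of all probe sets, and in 3 of the 8 genes, against 23.5% of all genes. In 10 of the 11, and in 28427 of all 34945 probe sets, the upper end of the interval stayed below a 2-fold rise. The exception among the 11 was a Slc4a1 probe set, 1434502_x_at.

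Most signals lay under the array median in both groups. This held for both group means in 8 of the 11 probe sets and in 13895 of all 34945. The array median averaged 5.17 on primary arrays and 5.31 on metastasis arrays, and Klf1, Epor and Ermap lay above it in both. The medians of the deposited arrays thus differed by group, at 5.16 to 5.17 on primary and 5.23 to 5.42 on metastasis arrays, which bears on every difference between the groups. The deposited values carry no call of present or absent. Probe sets differ in how well they bind, so no order of transcript levels among the genes is read from them. RMA also compresses differences near its floor, so a small change of a weakly expressed transcript may be missed with these values. Dim probe sets could still pass: 4.27% of those under the array median in both groups did, in either direction, against 20.6% of all. In bulk samples fewer cells of a type and less RNA per cell cannot be told apart.

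**Figure D1:**
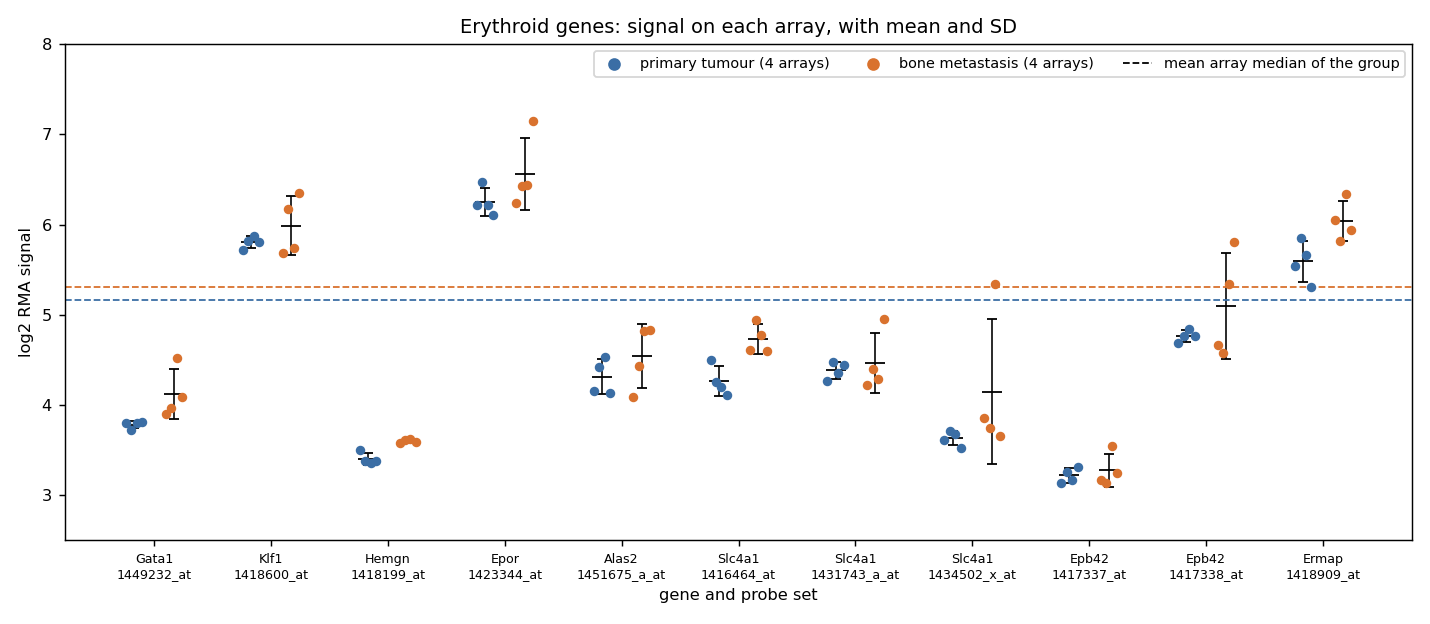
Log2 RMA signal of the 11 erythroid probe sets on each of 4 primary arrays (blue) and 4 bone metastasis arrays (orange), with the mean and SD of each group in black and the mean array median of each group as a dashed line. Only the probe sets of Klf1, Epor and Ermap lie above the array medians in both groups, and the groups part without overlap for Gata1, Hemgn and the Slc4a1 probe set 1416464_at.

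Gata1, the zinc finger factor that red cell precursors cannot do without, read 3.80, 3.72, 3.80 and 3.81 on primary arrays 1 to 4. On metastasis arrays 1 to 4 it read 3.90, 3.97, 4.52 and 4.09. Every metastasis array was above every primary array, yet all 8 values were under the array median. The log2 difference was 0.34 with an SE of 0.16 and an interval from -0.02 to 0.70, and it did not pass the test (limma adjusted p = 0.166). Non-overlapping groups in this direction were found in 3 of the 11 erythroid probe sets and in 14.3% of all probe sets.

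Klf1, the Krüppel-like factor that drives adult globin and red cell membrane genes, was above the array median on all 8 arrays. Its signal was 5.72, 5.82, 5.87 and 5.80 on the primary arrays and 5.69, 6.18, 5.74 and 6.35 on the metastasis arrays. Metastasis arrays 2 and 4 were high, arrays 1 and 3 lay within or under the primary range, and the groups overlapped. The difference was 0.18 (SE 0.18, interval -0.22 to 0.58, limma adjusted p = 0.480), higher in 2 of 4 mice.

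Hemgn, a nuclear protein of blood progenitors and red cell precursors, lay under the array median on all 8 arrays. It read 3.50, 3.38, 3.36 and 3.38 in primary tumours and 3.58, 3.62, 3.63 and 3.60 in metastases. The groups did not overlap, but the step between them was small, at 0.20 (SE 0.11, interval -0.05 to 0.45, limma adjusted p = 0.234).

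Epor, the receptor for erythropoietin, had a signal of 6.22, 6.47, 6.21 and 6.11 on the primary arrays. On the metastasis arrays the signal was 6.24, 6.42, 6.44 and 7.15, so that array 4 stood above the others and the rest lay in the primary range. The difference was 0.31 (SE 0.21, interval -0.16 to 0.79, limma adjusted p = 0.318). Without metastasis replicate 4 it was 0.12.

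Alas2 encodes the red cell form of the enzyme that carries out the first step of haem synthesis. Its probe set read 4.16, 4.42, 4.53 and 4.14 in primary tumours and 4.09, 4.43, 4.82 and 4.84 in metastases, and the groups overlapped. All 8 values lay under the array median. The difference was 0.23 (SE 0.20, interval -0.23 to 0.69, limma adjusted p = 0.435), which as a fold was 1.18 with an interval of 0.855 to 1.61.

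Slc4a1, the chloride and bicarbonate exchanger that is the most abundant membrane protein of the red cell, was read by 3 probe sets, and they disagreed. The brightest of them, 1416464_at, gave 4.49, 4.25, 4.20 and 4.11 on primary arrays and 4.61, 4.94, 4.77 and 4.60 on metastasis arrays, without overlap. Its difference was 0.47 (SE 0.14, interval 0.14 to 0.80), a fold of 1.38, and was higher in all 4 mice, by 0.12, 0.69, 0.57 and 0.49. This probe set lay at the edge of the threshold, with a limma adjusted p of 0.0508. Its adjusted p ran from 0.0272 to 0.230 over 18 alternative settings, 5 of which put it past the threshold.

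The second Slc4a1 probe set, 1431743_a_at, read 4.27, 4.48, 4.35 and 4.45 in primary tumours and 4.22, 4.40, 4.29 and 4.96 in metastases. Mouse 4 was higher in metastasis by 0.51 and the other mice slightly lower, the groups overlapped, and the difference was 0.08 (SE 0.18, limma adjusted p = 0.771). After quantile normalization it was -0.09. The third, 1434502_x_at, read 3.61, 3.71, 3.68 and 3.53 in primary tumours and 3.85, 3.74, 5.34 and 3.65 in metastases, so that its difference of 0.51 (SE 0.35, limma adjusted p = 0.331) rested on metastasis array 3. Without that array it was 0.11. No Slc4a1 probe set was above the array median in a group mean.

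Epb42, which ties Slc4a1 to the membrane skeleton, had 2 probe sets. The dimmer, 1417337_at, read 3.13, 3.26, 3.17 and 3.32 in primary tumours and 3.17, 3.14, 3.55 and 3.24 in metastases, with a difference of 0.06 (SE 0.14, limma adjusted p = 0.793) that was -0.02 after quantile normalization. The brighter, 1417338_at, read 4.69, 4.77, 4.85 and 4.76 in primary tumours and 4.66, 4.57, 5.34 and 5.81 in metastases. Metastasis arrays 3 and 4 were high and arrays 1 and 2 lay under the primary range, and the difference was 0.33 (SE 0.27, limma adjusted p = 0.410).

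Ermap, an immunoglobulin-type protein of the red cell surface, was above the array median on all 8 arrays. It read 5.54, 5.86, 5.66 and 5.31 in primary tumours and 6.05, 5.81, 6.34 and 5.94 in metastases. The lowest metastasis array was just under the highest primary array, and 3 of 4 mice were higher. The difference was 0.44 (SE 0.17, interval 0.06 to 0.83), a fold of 1.36, and it did not pass the threshold (limma adjusted p = 0.101).

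**Figure D2:**
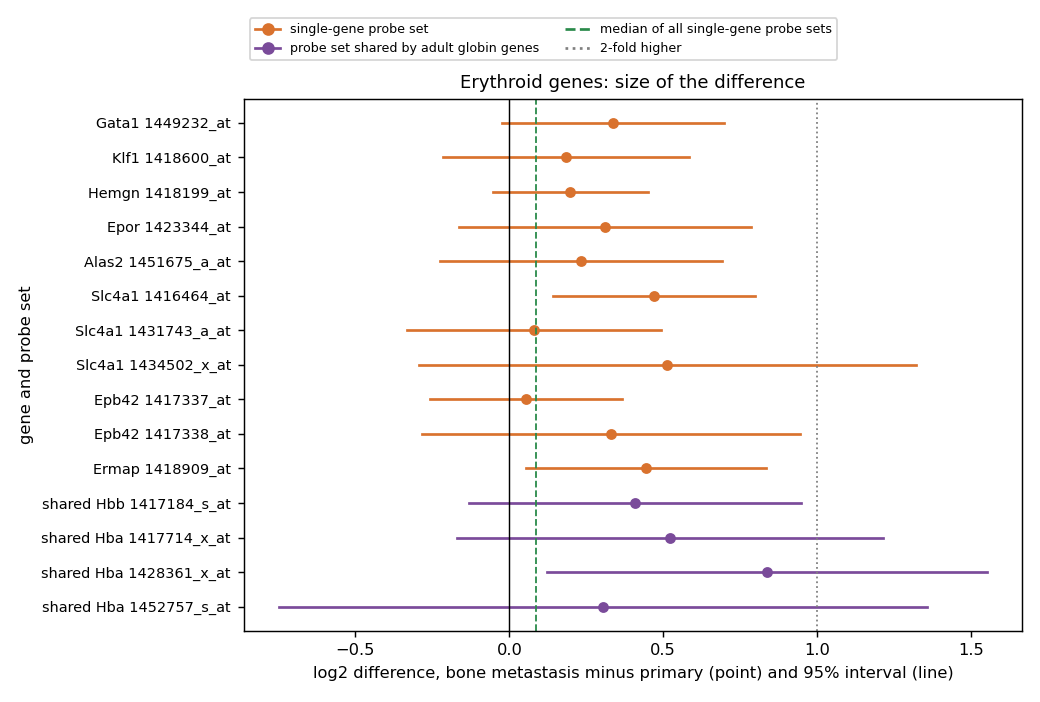
Log2 difference (point) and 95% interval (line) of each erythroid probe set (orange) and of 4 probe sets shared by adult globin genes (purple), with the median of all single-gene probe sets at 0.09 (green, dashed) and a 2-fold rise (grey, dotted). All 11 orange points lie between 0.06 and 0.51, and among these the intervals of Slc4a1 1416464_at and Ermap clear 0.

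The metastasis arrays differed among themselves. The highest of the 8 values fell on metastasis array 3 in 5 probe sets, on array 4 in 5 and on array 2 in 1. Set against the primary mean of each probe set, the median of the 11 was -0.01, 0.17, 0.51 and 0.35 on metastasis arrays 1 to 4. The same median over the 13895 probe sets under the array median in both groups was 0.00, 0.03, 0.19 and 0.29. Over the 4 metastasis arrays together those dim probe sets had a median difference of 0.15, and 4.27% of them passed the threshold in either direction. Scaling moved all genes: the median of all probe sets was 0.09 as deposited, 0.01 after quantile normalization and 0.29 after scaling to the 75th percentile, and that of the erythroid probe sets was 0.31, 0.19 and 0.51. Quantile normalization left 9 of the 11 differences above 0.

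Control transcripts on the same arrays showed more 3' bias in metastases. For actin, the log2 signal of the 3' control probe set exceeded that of the 5' one by 1.49 ± 0.44 in primary tumours (SD, n = 4). In metastases the excess was 5.33 ± 0.76 (SD, n = 4; exact permutation p = 0.0286, two-sided, the smallest that 4 against 4 arrays allow). It was 4.85, 4.55, 5.72 and 6.18 on metastasis arrays 1 to 4. Arrays 3 and 4, with the most 3' bias, were also those with the highest medians of the 11 erythroid probe sets. Not every probe set followed: Slc4a1 1416464_at was highest on metastasis array 2, at 4.94. The alpha-globin probe set 1428361_x_at, outside the 11, was lowest among metastases on array 4, at 7.95. The part of RNA quality in the erythroid differences was not tested. The keratin Krt8, an epithelial marker, was at 13.07 to 13.32 on primary arrays and read 7.34, 12.39, 9.80 and 12.97 on metastasis arrays 1 to 4. Krt18 ran alongside, at 6.05, 10.95, 8.49 and 11.86. Not all carcinoma genes did: the brightest probe set of Epcam read 8.34, 8.45, 8.65 and 9.35 there (difference -0.22, SE 0.24, with a dimmer one called lower at -1.48, SE 0.35), and Cdh1 differed by 0.43 (SE 0.46).

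**Figure D3:**
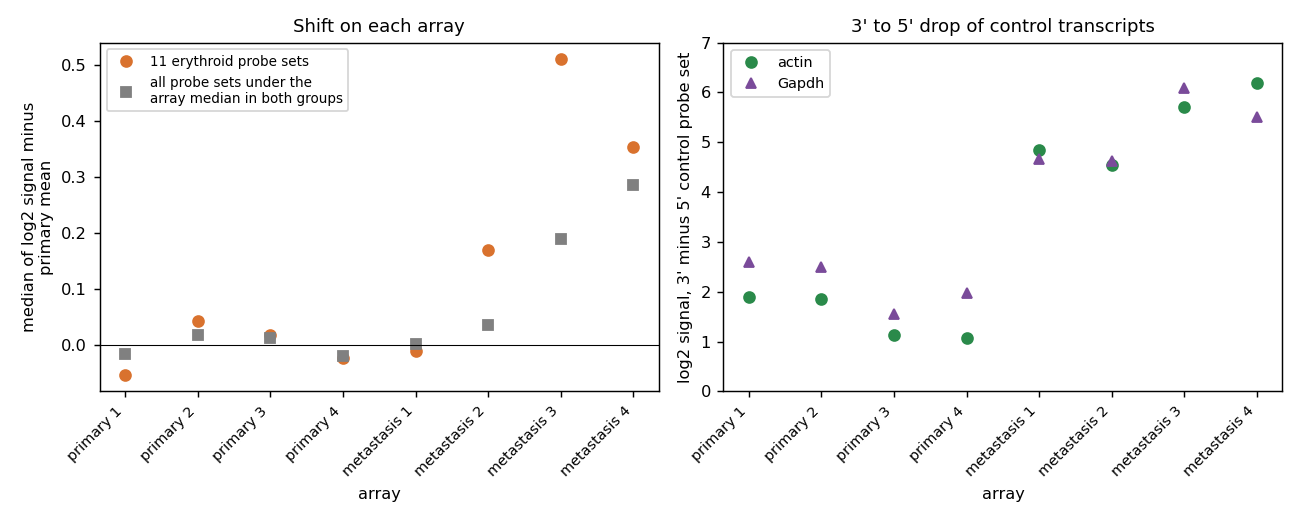
Left, for each array, the median over the 11 erythroid probe sets (circles) and over all probe sets under the array median in both groups (squares) of the log2 signal minus the primary mean. Right, the log2 signal drop from the 3' to the 5' control probe set of actin and Gapdh on the same arrays. Metastasis arrays 3 and 4 show both the largest shifts and the largest drops.

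Globins, the oxygen-carrying chains that make up most of the protein of a red cell, have adult and embryonic forms. Adult globin genes lie in near-identical copies, and 4 probe sets that carry several of their symbols fall outside the single-symbol rule. They were singled out after their values were seen and tested in a fit of all 45037 probe sets other than controls, of which 18.2% passed the threshold. All 4 lay above the array median on all 8 arrays. None passed (limma adjusted p from 0.101 to 0.663), and 1 did at an unadjusted p under 0.05.

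The probe set shared by the beta-globin genes Hbb-bt, Hbb-bs, Hbb-b2 and Hbb-b1 read 7.44, 8.24, 8.05 and 7.82 in primary tumours of mice 1 to 4 and 7.85, 8.72, 8.44 and 8.16 in their metastases. Each metastasis was a little above the primary tumour of its own mouse, by 0.41, 0.48, 0.39 and 0.35, and the mice kept the same order in both tissues, mouse 2 above 3, 4 and 1. The groups overlapped, and the difference was 0.41 (SE 0.24, limma adjusted p = 0.262), or 0.41 (SE 0.14, limma adjusted p = 0.107) with the mouse as a block.

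The 3 probe sets shared by the alpha-globin genes Hba-a2 and Hba-a1 differed by 0.52 (SE 0.30), 0.84 (SE 0.31) and 0.30 (SE 0.46). With the mouse as a block their limma adjusted p was 0.0704, 0.0651 and 0.426, so that none was called, where 14.3% of the 45037 probe sets were. The largest of these, 1428361_x_at, read 6.83, 8.19, 7.79 and 7.20 in primary tumours and 8.22, 8.37, 8.82 and 7.95 in metastases, higher in all 4 mice, by 1.40, 0.18, 1.02 and 0.75. It passed after scaling to the 75th percentile (limma adjusted p = 0.0464, or 0.0200 with the block). After quantile normalization with the block it passed too (limma adjusted p = 0.0487), as did the beta-globin probe set (limma adjusted p = 0.0455), whereas neither did after quantile normalization without the block.

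**Figure D4:**
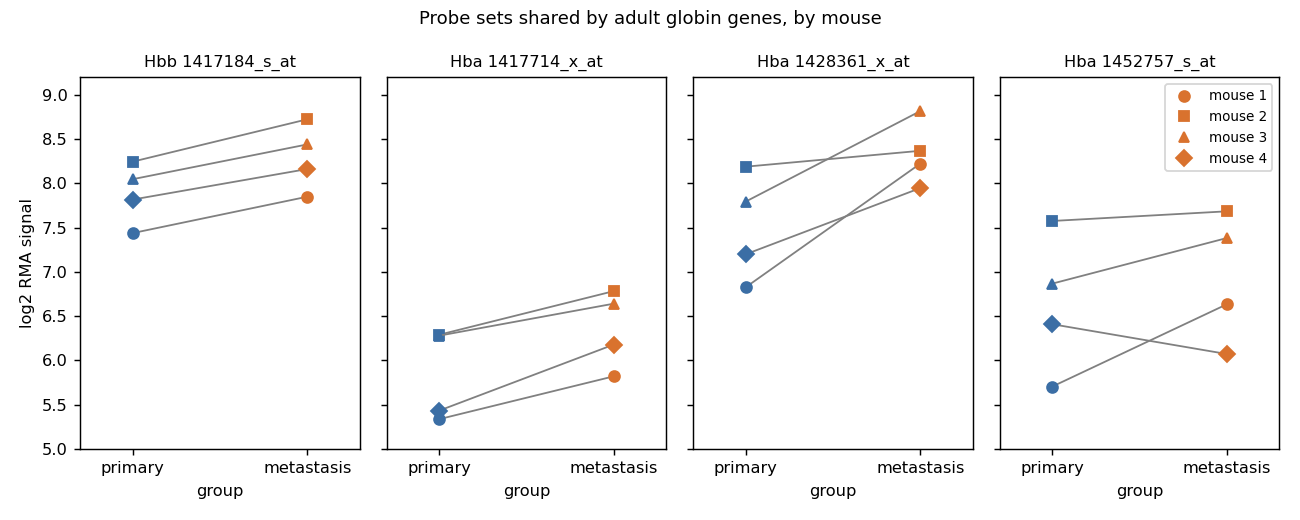
Log2 RMA signal of the 4 probe sets shared by adult globin genes in the primary tumour (blue) and metastasis (orange) of each of 4 mice, joined by a line for each mouse. The beta-globin lines run in parallel, with the metastasis above by 0.35 to 0.48, and the 4 panels share 1 axis.

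Globin probe sets with a single symbol were dim. Of 10 globin genes listed, 6 had such a probe set, and 0 of the 6 passed the threshold, with a median difference of 0.29 and 1 at an unadjusted p under 0.05. The adult Hba-a2 read 4.68 ± 0.24 in primary tumours and 5.29 ± 0.34 in metastases (SD, n = 4 each), a difference of 0.61 (SE 0.20, limma adjusted p = 0.0682). It passed after scaling to the 75th percentile (limma adjusted p = 0.0150). Hba-a1 differed by -0.07 and Hbb-b2 by 0.43, and the embryonic chains Hba-x, Hbb-bh1 and Hbb-y by 0.34, 0.25 and 0.10 (SE 0.15 to 0.23 for these 5), none of them past the threshold. All 6 lay under the array median in both groups.

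Further genes of red cell formation, 63 measured of 75 listed in 5 groups with the globins among them, were examined in the same fit with the brightest probe set of each gene. Of these, 11 were higher, 3 lower and 49 did not pass, with a median of 0.30. Over all 18193 genes 9.93% were called higher and 12.0% lower, with a median of 0.09.

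The genes of haem synthesis and iron handling were called higher in 1 of 15 cases and lower in 2, with a median of -0.05. The balance turned with the scaling: 3 were higher and 1 lower after quantile normalization (median 0.03), and with 75th percentile scaling 3 were higher and 2 lower (median 0.16), with Uros and Urod, enzymes of haem synthesis, gained in both. Without mouse 3 the count was 0 in either direction. These counts rest on brightest probe sets. Over all 36 probe sets of the list, as deposited, 4 were called higher and 7 lower. A dimmer probe set of Urod was among those called lower, at -0.94 (SE 0.20). The brightest of Urod differed by 0.70 (SE 0.24) as deposited and was not called. Steap3, the reductase that frees iron in endosomes, rose by 0.90 (SE 0.25, limma adjusted p = 0.0380, or 0.0742 with the mouse as a block). The dimmer probe sets of Steap3 differed by -0.04 (SE 0.12) and 0.07 (SE 0.13) and were not called. Slc11a2, an iron transporter, fell by 1.63 (SE 0.31), and Hmox1, which breaks haem down and is strong in macrophages, fell by 2.70 (SE 0.77). A dimmer probe set of Slc11a2 was called lower too, at -2.16 (SE 0.38). Its others differed by -0.58 (SE 0.23) and 0.10 (SE 0.14) and were not called. Of 12 fits that left out an array or a mouse, 2 kept the call of Steap3, 4 that of Hmox1 and 11 that of Slc11a2, and Hmox1 also lost it after quantile normalization (limma adjusted p = 0.0697).

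Red cell membrane and enzyme genes were higher in 4 of 21 cases and lower in 0, with a median of 0.33. Without mouse 3 there were 2, Ank1 and Add2. Ank1, the ankyrin that anchors Slc4a1, went from 7.05 ± 0.21 to 9.85 ± 0.85 (SD, n = 4 each), a rise of 2.80 (SE 0.38, limma adjusted p = 0.00239). Add2, an adducin of the spectrin skeleton that neurons also make, rose by 2.02 (SE 0.31). A dimmer probe set of Add2 passed too, at 0.94 (SE 0.28), and its others, at 0.28, 0.42 and 0.08, did not. Only 1 of the 4 probe sets of Ank1 passed the test, and the other 3 differed by 0.22, 0.27 and 0.33. Differences above 0 were found in 18 of the 21 genes, and in 10580 of all 18193 genes. Rhag and Kel, surface proteins found on red cells and their precursors, read 3.45 and 4.15 in primary tumours and 3.53 and 4.01 in metastases. Sptb and Icam4 of the same list differed by 0.64 (SE 0.24) and 0.58 (SE 0.34), neither past the threshold. Rhag, Kel, Sptb and Icam4 were picked after their values were seen.

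Transcription factors of the erythroid programme were called higher in 6 of 12 cases and lower in 1, with a median of 0.86. The count higher was 4 without primary array 3 or 4 and without mouse 2, and 3, with 0 lower, without mouse 3 or without mouse 4. Gfi1b was among those lost each time. Myb, a factor of immature blood cells of many lineages, rose by 4.11 (SE 0.69), from 6.41 ± 0.69 to 10.52 ± 1.47 (SD, n = 4 each). Its dimmer probe sets did not pass, at 0.70 (SE 0.47) and 2.91 (SE 1.04). Nfe2, which serves red cells, megakaryocytes and granulocytes, rose by 2.07 (SE 0.28), and Lmo2, also an endothelial gene, fell by 1.54 (SE 0.34), a call kept in 8 of the 12 fits. Lyl1, Gfi1b, Foxo3 and Bcl11a made up the other calls, and all of these factors also work in blood lineages other than the red cell. The dimmer probe sets of Foxo3 differed by -0.33 (SE 0.14) and 0.19 (SE 0.19) and were not called. Dimmer probe sets of Bcl11a were called higher at 2.83 (SE 0.50), 1.83 (SE 0.52) and 0.82 (SE 0.12), and its other dimmer ones were not called. Of 9 genes of erythropoietin signalling 0 passed in either direction by their brightest probe sets, with a median of 0.19. The 1 at an unadjusted p under 0.05 was Stat5a, at 0.66 (SE 0.24), which was called higher after quantile normalization and after scaling to the 75th percentile. A dimmer probe set of Socs3, an inhibitor of cytokine signalling, was called lower, at -2.67 (SE 0.36), and its brightest differed by -0.39 (SE 0.35).

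Other cell types of marrow were set beside these values, because Gata1 and several factors are shared with them. Megakaryocyte and platelet genes were called in 0 of 10 cases by their brightest probe sets, with a median of 0.21, and the 2 at an unadjusted p under 0.05, Pf4 and Rab27b, were both lower. Among all 14 probe sets of the list 2 were called higher, 1 of Gp1bb by 1.43 (SE 0.32) and 1 of Rab27b by 1.40 (SE 0.18), although the brightest of Rab27b differed by -0.34 (SE 0.12). Their summed linear signal ran from 3937 to 9191 on primary arrays and from 1393 to 3928 on metastasis arrays. Pf4, which macrophages make too, held most of it, at 12.34 ± 0.61 in primary tumours and 11.09 ± 0.86 in metastases (SD, n = 4 each, limma adjusted p = 0.0855, or 0.0341 with the mouse as a block), and Itga2b differed by 0.45 (SE 0.28, limma adjusted p = 0.280).

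Mast cell, eosinophil and basophil genes were higher in 5 of 12 cases and lower in 1, with a summed linear signal of 569 to 1142 on primary arrays and 1577 to 5930 on metastasis arrays. Hdc, which makes histamine, rose by 3.69 (SE 0.43), and the basophil protease Mcpt8 by 2.13 (SE 0.60, limma adjusted p = 0.0373, or 0.0559 with the block; kept in 4 of the 12 fits). Among the others the eosinophil genes Prg2, Il5ra and Epx rose by 3.06 (SE 0.60), 2.14 (SE 0.32) and 0.78 (SE 0.17). Epx lay under the array median on every array. The eosinophil genes Prg3 and Siglecf differed by 0.32 (SE 0.21) and 0.20 (SE 0.19), neither past the threshold. The mast cell protease Cma1 fell by 1.87 (SE 0.39). The part of these cells in the small Gata1 difference was not tested.

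Neutrophil and B lineage genes, of other cells made in marrow, were strongly higher. Of 11 neutrophil genes 8 were called higher, with a median of 3.22, among them S100a8 (4.57, SE 0.40) and S100a9 (5.33, SE 0.38). Of 9 B lineage genes 6 were called higher, with a median of 3.39, among them Ebf1 (6.98, SE 0.35) and Vpreb1 (6.66, SE 1.26), and 0 of either list were called lower. The neutrophil gene Lcn2 had a difference of -0.20 (SE 0.53). Vpreb1 read 13.9, 10.7, 7.0 and 12.4 on metastasis arrays 1 to 4, so that array 1, where the erythroid median was lowest, was the highest here. Among 10 carcinoma genes 2 were called lower and 0 higher, where 12.0% and 9.93% of all genes were. The 2 were Krt19 at -3.36 (SE 0.64) and Cldn4 at -1.55 (SE 0.33). Krt8 and Krt18 differed by -2.57 (SE 1.09) and -2.26 (SE 1.10), neither past the threshold. The difference between the erythroid list and these lists was not tested.

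**Figure D5:**
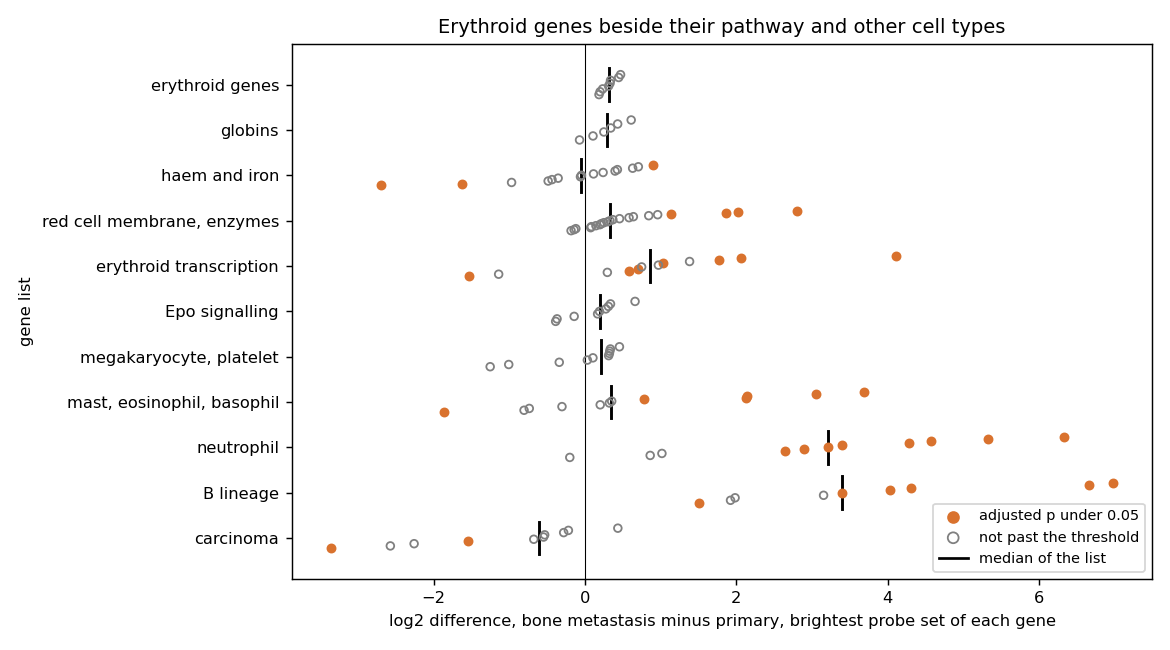
Log2 difference of each gene, brightest probe set, in the erythroid list, 5 further lists of red cell formation and 5 lists of other cell types, filled where the adjusted p was under 0.05, with the median of each list as a black bar. The erythroid genes and globins cluster between -0.07 and 0.61 with no filled point, while the neutrophil and B lineage medians stand at 3.22 and 3.39.

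The genes most like Slc4a1 were sought by the root mean square difference between log2 profiles over the 8 arrays, each taken minus its own primary mean. Zbtb24 was closest at 0.080, followed by Jakmip3 at 0.112, Gm30054 at 0.113, Klhl35 at 0.115 and 4930426D05Rik at 0.117. So small a difference is easily matched, and 953 of 18185 genes lay within 0.25 of the Slc4a1 profile. Of the other erythroid probe sets Hemgn, Gata1 and Ermap lay within it too, at 0.222, 0.233 and 0.242, and the other 7 lay between 0.322 and 0.496, among them both remaining probe sets of Slc4a1 itself, at 0.405 and 0.496.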

How the data were processed

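The deposited values were log2 signals for 45101 probe sets on 8 arrays. The authors computed them by RMA, as the submitters' processing notes name it, after labelling in 2 amplification cycles per the labels' protocols. The sources used here give no software version and no later step. Array medians differed between groups (5.16 to 5.17 in primary tumours, 5.23 to 5.42 in metastases) and among the metastasis arrays. The reason was not tested. Whether the arrays were normalized together or apart, or rescaled, is not known, and this bears on every metastasis minus primary difference. Left out were 64 control probe sets, 932 with several symbols and 9160 with none listed. The 34945 others were fitted by limma 3.58.1 (R 4.3.3, lmFit and eBayes), metastasis against primary, unpaired and two-sided, with Benjamini-Hochberg adjustment over all of them and a threshold of 0.05. A gene's brightest probe set stood for it in counts. The fit was tested on simulated data in which 200 of 34945 probe sets were changed. It recovered 33% of the changes of 1 log2 unit and 80% of those of 2, with 6 false calls. Far fewer probe sets were changed there than were called in the real data, so these shares need not hold for the real data. Alternatives were other scalings, filters, priors, the mouse as a block and fewer arrays.

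Members, lists and rules were chosen with earlier results of these data known. Named were all member probe sets, every globin, the 2 highest and lowest calls of each erythroid list, the 2 genes of each other cell type with the highest metastasis mean and the 5 genes most like Slc4a1; other genes named were chosen after their values were seen. Pairing follows the design text (same mouse). Same-numbered arrays deviated together by correlations of 0.16, -0.02, 0.03 and -0.10 over probe sets. Python 3.11.15, numpy 2.4.6, pandas 2.3.3, scipy 1.17.1 and matplotlib 3.10.9 were used. Arrays carry no depth, and their number limits the precision.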

Additional observations from a re-analysis of the deposited data

Results flagged for a closer look

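In 2 of 22 groups of 4 arrays, 1 array lay far from the other 3, against about 1 in 20 by chance. On metastasis array 3 the Slc4a1 probe set 1434502_x_at read 5.34, with the next at 3.85 (gap over range 0.882). On primary array 2 Gata1 read 3.72, with the next at 3.80 (gap over range 0.919), a gap small beside the signal.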

How the results depend on the processing

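The count of erythroid probe sets past the threshold, and that of genes called higher, was 0 and became 1 with scaling to the 75th percentile, with all probe sets other than controls and with an intensity trend and robust prior. It was 0 to 1 when single arrays or mice were left out, being 1 without metastasis replicates 1 or 4. The probe set was Slc4a1 1416464_at each time. It stayed 0 with quantile normalization, the replicate block, the filter on dim probe sets (which kept only Klf1, Ermap and Epor), the most variable or the mean of a gene's probe sets and, chosen after seeing the data, the brightest probe set per gene. With the replicate block Slc4a1 1416464_at had a log2 difference of 0.47 (limma adjusted p = 0.116), and none of the 11 erythroid probe sets changed its side of the threshold. In the further lists of red cell formation, counted by brightest probe sets, the block dropped Steap3, Cd59a and Bcl11a and added Cd24a and Cbfa2t3.

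Differences near 0 changed sign under some settings. After quantile normalization Slc4a1 1431743_a_at was at -0.094, Epb42 1417337_at at -0.021 and Hbb-y at -0.045, and after scaling to the 75th percentile Hba-a1 was at 0.13. Leaving out 1 array gave -0.083 to 0.16 for Slc4a1 1431743_a_at, -0.035 to 0.10 for Epb42 1417337_at, -0.064 to 0.20 for Hbb-y and -0.0073 to 0.62 for the alpha-globin probe set 1452757_s_at. Leaving out a mouse gave -0.062 (mouse 4), -0.052 (mouse 3) and -0.077 (mouse 4) for the first 3 of these, with Epb42 up to 0.12 and Hbb-y up to 0.22, and -0.20 to 0.00089 for Hba-a1. By their brightest probe sets Bcl11a lost its call, and Cbfa2t3 gained one, after quantile normalization too. Signal near the floor of RMA limits what can be seen.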
